A study of Homo sapiens with 39 samples.

Results

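The messenger RNA of 47 genes of the endoplasmic reticulum (ER) chaperone and secretory pathway was measured by RNA sequencing in C4-2B cells, a castration-resistant human prostate cancer line descended from LNCaP. The genes were taken as a named list of symbols, chosen with earlier results of these data known, and they are 47 of the 63187 genes in the count table. By role, 7 are stress sensors or transcription factors, 11 are chaperones or co-chaperones, 8 form or rearrange disulfide bonds, 10 act in ER-associated degradation, 8 act in translocation into the ER and 3 belong to the COPII coat. Of these, 46 had enough counts to be tested. The transcription factor gene CREB3L1 had 2 to 10 counts in each library and was not tested.

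The 39 libraries form 13 groups of 3 and come from 2 experiments. In the panel, cells were treated for 5 days with the vehicle DMSO, abiraterone at 5 µM, enzalutamide at 20 µM, olaparib at 1 µM, talazoparib at 10 nM, abiraterone at 5 µM with olaparib at 1 µM, or enzalutamide at 20 µM with talazoparib at 10 nM. In the time course, cells were treated with DMSO, olaparib at 1 µM or olaparib at 5 µM for 1 day or for 5 days. Abiraterone inhibits the steroid-synthesis enzyme CYP17A1 and enzalutamide is an antiandrogen, and both are called hormonal drugs here. Olaparib and talazoparib inhibit PARP enzymes (PARPi). All groups are 1 cell line grown in serum-containing medium, so no second line or tissue stands behind any value, and the labels do not say whether the 3 libraries of a group are separate cultures. P-values therefore measure the spread between these libraries, which may be technical.

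Proteins that will be secreted or placed in a membrane enter the ER through a channel, where a signal peptide is cut off, chaperones hold the unfolded chain and disulfide bonds are formed. Chains that do not fold are sent back to the cytosol and destroyed, and folded ones leave in vesicles with a COPII coat. When unfolded chains accumulate, 3 sensors in the ER membrane respond: IRE1 (gene ERN1) splices the XBP1 messenger RNA, PERK (gene EIF2AK3) slows translation, and ATF6 is cut to release a transcription factor. XBP1 and ATF6 act on ER chaperone genes through short promoter elements. Prostate luminal cells are secretory, and the kallikreins that they export pass through this pathway.

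The libraries held 26932205 to 49833473 counts. Summed markers of prostate luminal cells (6 genes, KLK3 among them) ranged over the libraries from 1993 to 3660 CPM, that is, counts per 1000000 counts of the library. The sums of the basal, fibroblast, endothelial and blood lists, of 3 genes each, reached at most 1.94, 22.9, 22.6 and 1.17 CPM. The defining genes KRT5, TP63, DCN and PECAM1 were at or near 0, and COL1A1 and VWF made up nearly all of the fibroblast and endothelial sums. In the time course, library 3 of olaparib at 5 µM on day 1 stood apart: chi-square per degree of freedom over genes was 5.99 and 5.87 against the other 2 libraries of its group, which gave 2.28 against each other, where the other time course groups gave 2.18 to 3.34. Without it, 38 members in place of 40 passed with 5 µM on day 1, and 34 in place of 36 differed in effect between the days. In the panel the highest values were 6.03 for DMSO libraries A and C and 5.54 for talazoparib libraries A and C. Next was 5.39 for enzalutamide and talazoparib libraries A and C. As a check of the treatments, the kallikrein gene KLK3 averaged 1450.1 CPM with DMSO, 485 with abiraterone and 304 with enzalutamide, and the p53 target CDKN1A averaged 54.1 CPM with DMSO, 244 with olaparib and 213 with talazoparib.

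The most abundant members per length of the union of exons in DMSO were the chaperones and their partners. This union takes in every annotated exon and can be longer than any 1 messenger RNA. It was 2802 bases for CALR, 6530 for HSPA5 (its whole gene), 13092 for HSP90B1 and 20691 for EIF2AK3. The order of members on this scale therefore depends on the annotation. CALR, a calcium-binding lectin chaperone, had 456 CPM per kb, PDIA4, a disulfide isomerase, 213, HSPA5, the Hsp70 of the ER that is also called BiP, 146, and HSP90B1, the Hsp90 of the ER, 116. The sensors were low on the same scale, with 6.05 CPM per kb for ATF6, 2.52 for ERN1 and 1.94 for EIF2AK3. The lowest tested members were DERL3, a degradation factor, at 1.68 and ERO1B, an oxidase that recharges the isomerases, at 0.628. All further levels are CPM after TMM scaling within an experiment, so levels are not compared between the panel and the time course.

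XBP1 and ATF6 are known to bind an ER stress response element, ERSE, in which CCAAT and CCACG lie 9 bases apart, and a shorter form, ERSE-II, in which ATTGG and CCACG lie 1 base apart. These letters were searched on both strands in the RefSeq promoter windows of GRCh38.p14, from 250 bases before to 50 bases after each start site. Windows were given for 43 of the 47 members (not for PDIA3, DERL1, DERL3 and SEC24D). ERSE stood in 8 of the 43 members, or 18.6%, against 25 of all 27305 gene symbols (27 of 35116 windows, or 0.0769%), members included. ERSE-II stood in 3 members against 19 symbols (19 windows, or 0.0541%). The list was drawn partly from the XBP1 and ATF6 branches, so an excess of these elements follows from that choice and is not a result. The members' sites are shown because the same elements recur beside the results, each read along the gene's strand with 5 flanking bases and with both 5-base parts of the element in capitals:
HSPA5 (ERSE): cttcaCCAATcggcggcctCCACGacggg
HSP90B1 (ERSE, first site): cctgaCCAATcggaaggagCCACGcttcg
HSP90B1 (ERSE, second site): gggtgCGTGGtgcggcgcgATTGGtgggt
CALR (ERSE): ccacgCGTGGtcgaccatcATTGGtcggt
CANX (ERSE): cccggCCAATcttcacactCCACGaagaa
CRELD2 (ERSE): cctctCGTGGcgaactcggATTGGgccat
PDIA6 (ERSE): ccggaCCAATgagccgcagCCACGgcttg
ERO1B (ERSE): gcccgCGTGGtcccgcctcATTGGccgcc
XBP1 (ERSE): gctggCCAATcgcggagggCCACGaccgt
HYOU1 (ERSE-II, first site): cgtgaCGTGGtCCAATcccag
HYOU1 (ERSE-II, second site): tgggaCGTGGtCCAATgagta
HERPUD1 (ERSE-II): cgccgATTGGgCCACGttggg
SDF2L1 (ERSE-II): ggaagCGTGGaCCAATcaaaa
An element that reads CGTGG before ATTGG, or CGTGG before CCAAT, is the same element on the other strand. A match is a description of the letters and not a measured binding site.

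The 111 bases before the annotated start of HSPA5 are shown as the promoter of the gene whose product keeps the 3 sensors inactive. They lie at chr9:125241383-125241493 of GRCh38.p14 on the minus strand, and both parts of the ERSE are in capitals:
HSPA5: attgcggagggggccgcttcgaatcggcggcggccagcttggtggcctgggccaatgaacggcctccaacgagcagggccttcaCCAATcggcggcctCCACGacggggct
One full ERSE stood in these bases. A related element that XBP1 is known to bind, TGACGTGG, stood in 5 members, HYOU1, DNAJC10, UBE2J1, SSR3 and SRP19. That is 11.6% of the 43, against 253 of all 27305 gene symbols (256 windows, or 0.729%). The choice of the list bears on this share too. In HYOU1 this element overlapped the first ERSE-II site. For those 5 members the 8 letters are in capitals:
DNAJC10: caccgCCACGTCAaccta
UBE2J1: tactgCCACGTCAgggca
SSR3: aacagCCACGTCAgcaag
SRP19: tcatgCCACGTCAgagac
HYOU1: ccccgTGACGTGGtccaa

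Abiraterone lowered nearly every member. Against DMSO, 45 of 46 tested members fell and 0 rose (adjusted p under 0.05 over all genes, edgeR's quasi-likelihood test), where 27.1% of all genes tested fell and 25.8% rose. The median of the members was -0.49 on the log2 scale against 0.00030 for all genes. Counts are relative to all others in a library. A fall is thus a smaller share of the counts, and amounts per cell were not measured. The members held 1.30 ± 0.011% of all counts with DMSO (mean ± SD, n = 3) and 1.01 ± 0.014% with abiraterone. The fall ran through every role: 5 of 6 sensors and transcription factors, 11 of 11 chaperones, 8 of 8 disulfide genes, 10 of 10 degradation genes, 8 of 8 translocation genes and 3 of 3 COPII genes.

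The marker sums also moved with the hormonal drugs. The luminal sum was 3067 to 3194 CPM in the DMSO libraries of the panel and 1993 to 2246 in the 4 groups with abiraterone or enzalutamide. KLK3, the largest part of this sum with DMSO, fell as given above, but not every gene of the list fell. The fibroblast sum was 10.6 to 13.8 CPM with DMSO and 17.5 to 22.9 in those 4 groups, the blood sum 0 to 0.0760 and 0.318 to 1.17, and the basal sum 0.233 to 0.781 and 0 to 0.326. The endothelial sum was 13.9 to 16.4 CPM with DMSO, 20.2 to 22.6 in the 2 groups with abiraterone and 11.6 to 16.0 in the 2 with enzalutamide. Their part in the results was not tested.

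UBE2J1, the E2 ubiquitin-conjugating enzyme of the degradation complex, fell most with both hormonal drugs. Its level was 84.4, 83.1 and 78.6 CPM in the DMSO libraries, 36.9, 35 and 34.7 with abiraterone and 36.1, 33.7 and 35.2 with enzalutamide. Each treated library lay well under the lowest DMSO library, and the 2 hormonal drug groups overlapped. The log2 fold change was -1.20 ± 0.047 (SE) with abiraterone (edgeR adjusted p = 9.18e-22) and -1.23 ± 0.046 with enzalutamide (edgeR adjusted p = 3.32e-22). Next came SSR3, a subunit of the translocon-associated complex, and SPCS3, a subunit of the signal peptidase that trims the entering chain. SSR3 was at 492, 496 and 517 CPM with DMSO and 258, 244 and 270.1 with abiraterone, a log2 fold change of -0.96 ± 0.030 (edgeR adjusted p = 1.49e-24). SPCS3 was at 179, 178 and 186 CPM with DMSO, 94.3, 90.7 and 93.9 with abiraterone and 96.4, 94.1 and 94.6 with enzalutamide. Both hormonal drug groups lay under every DMSO library, with changes of -0.96 ± 0.032 (edgeR adjusted p = 1.45e-23) and -0.93 ± 0.032 (edgeR adjusted p = 2.72e-23). Other subunits of the same machines moved less: SPCS2 of the signal peptidase changed by -0.37 and SSR1 by -0.64 with abiraterone, and the channel subunits SEC61A1, SEC61B and SEC61G by -0.38, -0.54 and -0.66.

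The exception with abiraterone was EIF2AK3 at chr2:88556741-88691518, the gene of the sensor PERK. Its level was 39, 41.3 and 40.4 CPM with DMSO and 41.5, 39 and 39.2 with abiraterone. The groups overlapped, and the log2 fold change was -0.012 ± 0.045 (edgeR adjusted p = 0.842). ERN1 at chr17:64039080-64130819, the gene of the sensor IRE1, was at 49.3, 46.2 and 49.5 CPM with DMSO and 28.5, 33.3 and 29.7 with abiraterone. The log2 fold change was -0.67 ± 0.050 (edgeR adjusted p = 1.19e-13), and the groups did not overlap. ATF6 at chr1:161766298-161977574, the third sensor, was at 84.3, 87.1 and 87.5 CPM with DMSO and 74.5, 78.5 and 78.6 with abiraterone, a change of -0.16 ± 0.033 (edgeR adjusted p = 9.93e-05) that was small beside that of ERN1. Among the transcription factors related to ATF6, CREB3L2 changed by -0.87 and CREB3L4 by -0.67.

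The chaperones fell by unequal amounts with abiraterone. HSPA5 at chr9:125234853-125241382 was at 979, 963 and 922 CPM with DMSO and 774, 773 and 807 with abiraterone. The groups did not overlap, and the log2 fold change was -0.28 ± 0.026 (edgeR adjusted p = 1.42e-11). The largest changes among the chaperones were those of DNAJB9, a co-chaperone of HSPA5 that also binds IRE1, at -0.70, and SDF2L1, a partner of DNAJB11, at -0.69. The smallest was that of CALR at -0.16. The other 7 ranged from -0.50 for DNAJC3, which tethers HSPA5 to client chains and inhibits PERK, to -0.26 for CRELD2, with -0.49 for HYOU1, -0.49 for MANF, -0.45 for HSP90B1, -0.41 for CANX and -0.33 for DNAJB11 in between. Among the disulfide genes the range ran from -0.92 for DNAJC10, a reductase that helps degradation, to -0.24 for ERO1B. The isomerases PDIA3, PDIA4, PDIA6, P4HB and PDIA5 lay at -0.30, -0.39, -0.51, -0.48 and -0.74, and the oxidase ERO1A at -0.71. The ERO1B libraries of the 2 groups overlapped, and its call was lost with DESeq2 (-0.23), with total count scaling (-0.17) and without DMSO library A (-0.16), abiraterone library A (-0.19) or abiraterone library B (-0.21).

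Enzalutamide lowered the same pathway with more exceptions. Against DMSO, 42 of 46 members fell and 0 rose, where 26.3% of all genes fell and 27.0% rose. The members' median was -0.38, and their share of all counts was 1.09 ± 0.0034%. The 4 members that did not pass were XBP1, ATF6, CALR and ERO1B. The XBP1 level was 206, 193 and 194 CPM with DMSO and 211, 193 and 204 with enzalutamide, overlapping groups with a log2 fold change of 0.035 ± 0.036 (edgeR adjusted p = 0.442). Counts per gene do not tell spliced from unspliced XBP1. ATF6 was at 85.7, 84.3 and 88.4 CPM with enzalutamide, a change of -0.0025 ± 0.033 (edgeR adjusted p = 0.957). For CALR the change was -0.043 ± 0.022 (edgeR adjusted p = 0.103) and for ERO1B 0.20 ± 0.10 (edgeR adjusted p = 0.0820). EIF2AK3 was among those that fell, from the DMSO values above to 37, 36.8 and 37.1 CPM, a change of -0.12 ± 0.045 (edgeR adjusted p = 0.0191) without overlap. This call was lost with total count scaling (-0.070) and without DMSO library B (-0.11) or enzalutamide library B (-0.11). Under total count scaling XBP1 (0.087) and ERO1B (0.25) passed as higher, as did ERO1B without DMSO library A (0.28).

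The third largest fall with enzalutamide was that of EDEM3, a lectin-like mannosidase that marks misfolded glycoproteins for degradation. It was at 161, 157 and 156 CPM with DMSO, 92.4, 89.5 and 92.5 with abiraterone and 85.6, 82.9 and 86.6 with enzalutamide. Every library of a hormonal drug lay under every DMSO library, and the changes were -0.79 ± 0.032 and -0.89 ± 0.032 (edgeR adjusted p = 1.12e-22 for enzalutamide). Its relatives EDEM1 and EDEM2 changed by -0.55 and -0.39 with enzalutamide. The rest of the degradation genes fell too. The change was -0.54 for SYVN1, the ubiquitin ligase of the complex, -0.23 for its partner SEL1L, -0.29, -0.23 and -0.63 for the membrane factors DERL1, DERL2 and DERL3, and -0.23 for HERPUD1, a scaffold of the ligase. In the COPII coat, SEC24D, a cargo adaptor of the inner layer, changed by -0.88 with abiraterone and -0.83 with enzalutamide, SEC23B by -0.55 and -0.50, and the outer-layer gene SEC31A by -0.14 and -0.29.

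**Figure D1:**
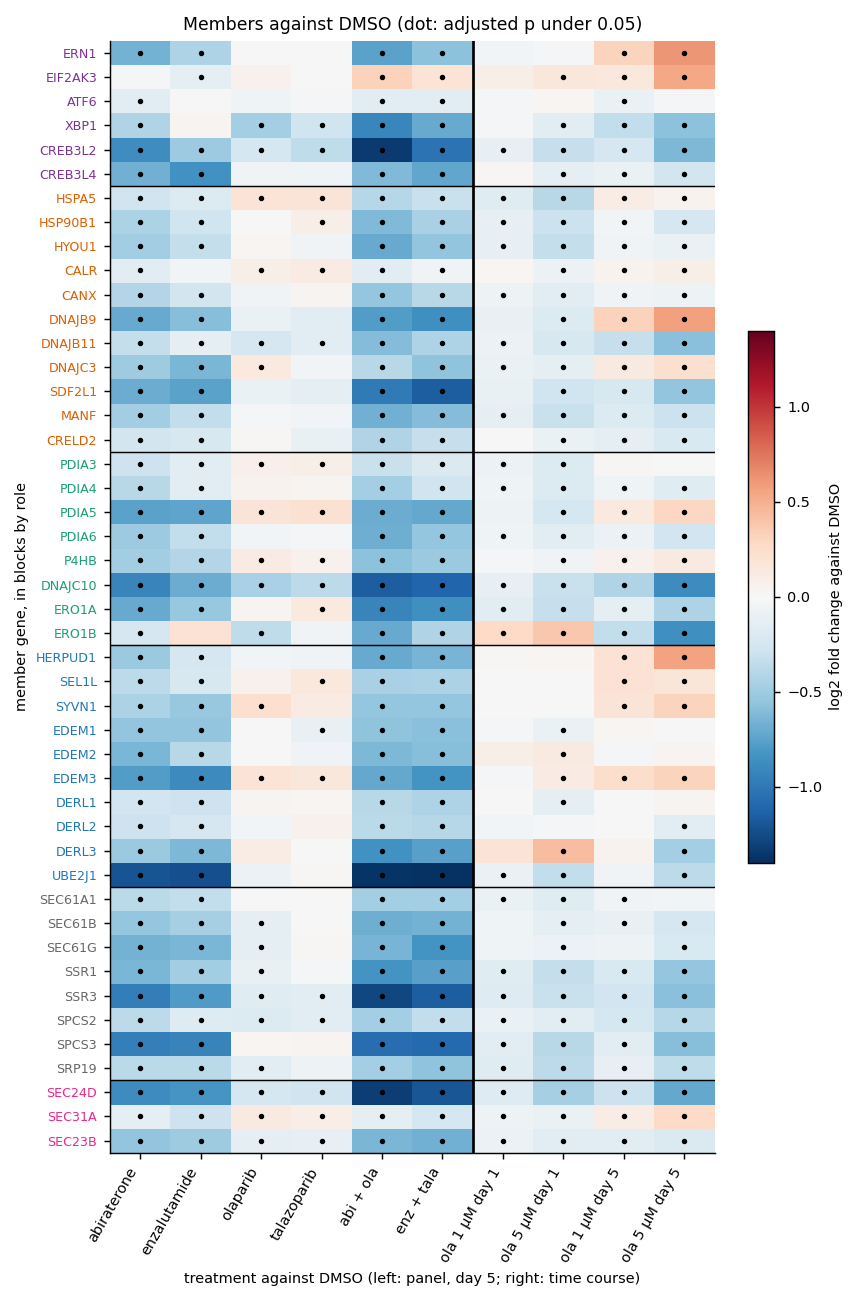
Log2 fold change against DMSO of the 46 tested members (y axis, in blocks by role: sensors and transcription factors, chaperones, disulfide formation, degradation, translocation, COPII) in 10 treatments (x axis), with a dot where the adjusted p was under 0.05. The hormonal drug columns and both combinations are blue nearly throughout, with 42 to 45 members lower, while the olaparib columns at day 5 mix red and blue.

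A direct comparison of the 2 hormonal drug groups used no DMSO library. The doses differ, 5 µM for abiraterone and 20 µM for enzalutamide. With enzalutamide 24 members were higher than with abiraterone and 4 were lower, where 9.78% of all genes were higher and 10.1% lower, and the members' median difference was 0.10. By role, 7 of 11 chaperones, 7 of 8 disulfide genes, 4 of 6 sensors and transcription factors, 3 of 10 degradation genes, 3 of 8 translocation genes and 0 of 3 COPII genes were higher. The 4 lower members were CREB3L4, SEC31A, DNAJC3 and EDEM3.

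XBP1 at chr22:28794555-28800597 differed most. Its level was 151, 140.2 and 151 CPM with abiraterone against 211, 193 and 204 with enzalutamide. No library of one group came near the other, and the difference was 0.46 ± 0.037 on the log2 scale (edgeR adjusted p = 2.08e-11). Against DMSO, XBP1 changed by -0.42 ± 0.037 with abiraterone (edgeR adjusted p = 1.07e-11). ERO1B was at 7.67, 7.78 and 8.99 CPM with abiraterone and 10.8, 11.2 and 11.1 with enzalutamide, a difference of 0.44 ± 0.10 (edgeR adjusted p = 0.00114) in a gene of few counts. CREB3L2, a basic leucine zipper factor that activates COPII genes, was at 179.5, 186 and 183 CPM with DMSO, 96.1, 102 and 102 with abiraterone and 129, 126 and 129.8 with enzalutamide. Its libraries were thus lowest with abiraterone and intermediate with enzalutamide, with a difference between the 2 of 0.36 ± 0.030 (edgeR adjusted p = 1.59e-11).

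In the opposite direction, CREB3L4, a relative of CREB3L2 known for high levels in prostate, was at 90.5, 85.3 and 95.2 CPM with DMSO, 58.3, 54.2 and 57.7 with abiraterone and 49.5, 52.1 and 48.6 with enzalutamide, a difference of -0.18 ± 0.043 (edgeR adjusted p = 0.00242). SEC31A was at 171, 174 and 178 CPM with DMSO, 159, 159.5 and 155 with abiraterone and 145, 139 and 146 with enzalutamide, a difference of -0.15 ± 0.027 (edgeR adjusted p = 8.85e-05). DNAJC3 was at 88.9, 87.6 and 92.6 CPM with abiraterone and 77.4, 82.8 and 83.5 with enzalutamide, a difference of -0.14 ± 0.037 (edgeR adjusted p = 0.00574). In all 3 genes the enzalutamide libraries lay under those of abiraterone without overlap, and the DNAJC3 call was lost without enzalutamide library A (-0.11). For UBE2J1 the difference was -0.025 ± 0.050, for PDIA5 0.0032 ± 0.033 and for EDEM1 -0.0026 ± 0.031, none of them past the threshold.

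The direct comparison of the 2 combinations rests on other libraries. The combinations differ in the PARPi as well as in the hormonal drug, so the parts of these drugs cannot be told apart here. 15 members were higher with enzalutamide and talazoparib than with abiraterone and olaparib and 5 were lower, where 5.84% of all genes were higher and 6.71% lower. The 15 higher members were all among the 24 that were higher with enzalutamide than with abiraterone, and 3 of the 5 lower ones, DNAJC3, EDEM3 and SEC31A, were among the 4 lower. Of all genes, 4.05% were higher in both of these comparisons and 4.69% lower in both. In the combinations XBP1 was at 107, 103 and 104 CPM with abiraterone and olaparib and 123, 119 and 121 with enzalutamide and talazoparib, a difference of 0.21 ± 0.038 (edgeR adjusted p = 1.36e-04).

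The members with an ERSE or ERSE-II in the window can be set beside the rest. Of 11 such members, 11 fell with abiraterone (median -0.42), 8 fell with enzalutamide (median -0.23) and 9 were higher with enzalutamide than with abiraterone (median 0.15). Of the 31 other tested members with a promoter window, 30, 30 and 14 did so, with medians of -0.55, -0.49 and 0.076. In the combinations 11 of the 11 and 30 of the 31 fell, with medians of -0.69 and -0.63 with abiraterone and olaparib and -0.45 and -0.60 with enzalutamide and talazoparib. With olaparib at 5 µM on day 5 the medians were -0.21 and -0.16. The set with the lower median was thus not the same in every comparison. XBP1, CALR and ERO1B, whose sites are printed above, are 3 of the 4 members that did not pass with enzalutamide. The difference between the 2 sets was not tested.

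**Figure D2:**
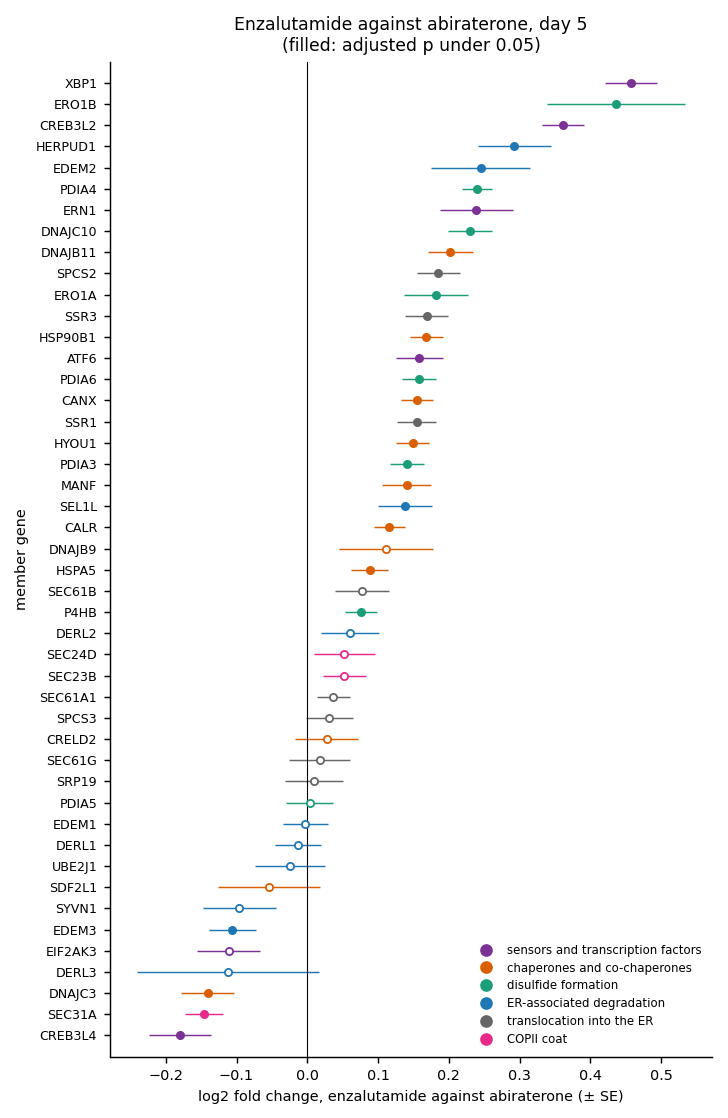
Log2 fold change of enzalutamide against abiraterone (x axis, ± SE) for the 46 tested members (y axis, sorted), coloured by role and filled where the adjusted p was under 0.05. XBP1, ERO1B and CREB3L2 lead the 24 higher members, and CREB3L4, SEC31A and DNAJC3 are lowest.

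The PARPi alone were read against the same background. With olaparib at 1 µM 9 members rose and 13 fell, where 19.6% of all genes rose and 16.0% fell, and the members' median was -0.014. With talazoparib at 10 nM 10 rose and 9 fell, against 18.4% and 15.4% of all genes, with a median of -0.015. The shares of members that rose lay near those of all genes with both drugs, and so did the share that fell with talazoparib. Scaled by total counts instead of TMM, olaparib gave 7 higher and 17 lower members and talazoparib 5 higher and 18 lower. Under the same scaling 15.5% of all genes were higher and 20.6% lower with olaparib, and 13.7% higher and 20.6% lower with talazoparib. The share of all counts held by the members was 1.27 ± 0.0068% with olaparib and 1.28 ± 0.014% with talazoparib. The fallers with olaparib included 6 of 8 translocation genes and 2 of 3 COPII genes, and the risers included 3 chaperones, 3 disulfide genes, 2 degradation genes and SEC31A.

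HSPA5 rose with each PARPi. It was at 1091, 1086 and 1093 CPM with olaparib and 1023, 1088 and 1123 with talazoparib. All 6 libraries lay above every DMSO library, and the changes were 0.19 ± 0.026 (edgeR adjusted p = 2.05e-07) and 0.18 ± 0.026 (edgeR adjusted p = 1.15e-06). EDEM3 was at 183, 185 and 171 CPM with olaparib and 172, 178 and 179 with talazoparib, changes of 0.19 ± 0.031 (edgeR adjusted p = 7.92e-06) and 0.16 ± 0.031 (edgeR adjusted p = 8.20e-05) without overlap with DMSO. SYVN1 was at 48.2, 44.6 and 47.3 CPM with DMSO and 55.4, 55 and 54.2 with olaparib, a rise of 0.23 ± 0.048 (edgeR adjusted p = 1.77e-04). With talazoparib its change of 0.11 ± 0.048 did not pass (edgeR adjusted p = 0.0752). PDIA5, an isomerase reported to act on ATF6, was at 120.5, 116 and 117 CPM with DMSO, 136, 134 and 132 with olaparib and 133, 136 and 138 with talazoparib, changes of 0.18 ± 0.031 and 0.21 ± 0.031 (edgeR adjusted p = 1.59e-06 for talazoparib).

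XBP1, DNAJC10 and CREB3L2 fell with each PARPi. XBP1 fell most with olaparib, and DNAJC10 and then CREB3L2 fell most with talazoparib. The XBP1 level was 143, 141 and 142 CPM with olaparib and 153, 164 and 171 with talazoparib, all under the DMSO libraries, with changes of -0.47 ± 0.037 (edgeR adjusted p = 2.86e-12) and -0.28 ± 0.036 (edgeR adjusted p = 1.67e-07). DNAJC10 was at 252, 256 and 265 CPM with DMSO, 189, 193 and 183 with olaparib and 198, 198 and 204 with talazoparib, without overlap, with changes of -0.45 ± 0.030 (edgeR adjusted p = 3.47e-14) and -0.36 ± 0.030 (edgeR adjusted p = 8.86e-12). CREB3L2 was at 158, 154 and 149.8 CPM with olaparib and 142, 142 and 144 with talazoparib, changes of -0.25 ± 0.029 and -0.36 ± 0.029 (edgeR adjusted p = 3.53e-12 for talazoparib). ERO1B was at 10.7, 9.20 and 8.99 CPM with DMSO, 8.42, 7.17 and 6.99 with olaparib and 8.18, 9.90 and 9.67 with talazoparib. Its fall with olaparib was -0.35 ± 0.10 (edgeR adjusted p = 0.00510), and its change with talazoparib was -0.052 ± 0.10 (edgeR adjusted p = 0.736). The sensors did not pass: ERN1 changed by -0.0062 ± 0.048 and -0.0057 ± 0.047, EIF2AK3 by 0.061 ± 0.044 and 0.0042 ± 0.044, and ATF6 by -0.066 ± 0.033 and -0.027 ± 0.033, with olaparib and talazoparib.

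Talazoparib against olaparib, at 10 nM against 1 µM and so at different doses, gave 5 members higher and 4 lower, where 3.11% of all genes were higher and 5.25% lower. This count of 9 was unstable: it was 14 with DESeq2, and among fits that left out 1 library it was 5 without olaparib library B or C, 14 without talazoparib library A and 3 without talazoparib library B or C. XBP1 was higher with talazoparib by 0.19 ± 0.037 (edgeR adjusted p = 0.00102) and DNAJC3 lower, at -0.18 ± 0.035 (edgeR adjusted p = 0.00155). For HSPA5 the difference was -0.015 ± 0.026 and for DNAJC10 0.088 ± 0.030, neither past the threshold.

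The combinations lowered the pathway further than the hormonal drug alone. Against DMSO 45 members fell with abiraterone and olaparib and 1 rose, where 31.1% of all genes fell and 31.1% rose. With enzalutamide and talazoparib 45 fell and 1 rose, against 31.3% and 31.2% of all genes. The members' medians were -0.64 and -0.57, and their shares of all counts were 0.916 ± 0.0024% and 0.970 ± 0.0045%, the lowest of the 7 panel groups. The largest falls were -1.38 for UBE2J1, -1.34 for CREB3L2, -1.32 for SEC24D and -1.28 for SSR3 with abiraterone and olaparib, and -1.39 for UBE2J1, -1.20 for SEC24D, -1.15 for SDF2L1 and -1.15 for SSR3 with enzalutamide and talazoparib. DNAJC10 was at 116, 120.1 and 110.5 CPM and 116, 122 and 119 CPM in the 2 combinations.

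Against each hormonal drug alone, adding olaparib to abiraterone lowered 27 members and raised 2, where 14.7% of all genes fell and 14.4% rose. Adding talazoparib to enzalutamide lowered 34 and raised 2, against 17.9% and 16.5% of all genes. These comparisons share no library, and 26 members were lower in both, 1 was higher in both and 0 went in opposite directions. Of all genes, 11.3% were lower in both, 10.5% higher in both and 0.0537% opposite. XBP1 was the member that fell most in each, with changes of -0.50 ± 0.038 (edgeR adjusted p = 4.58e-12) on abiraterone and -0.74 ± 0.037 (edgeR adjusted p = 5.76e-17) on enzalutamide. HSPA5 was at 724, 720.4 and 732 CPM with abiraterone and olaparib and 822, 840.1 and 839 CPM with enzalutamide against 766, 768 and 773 with enzalutamide and talazoparib. It changed by -0.11 ± 0.026 (edgeR adjusted p = 9.64e-04) and -0.12 ± 0.026 (edgeR adjusted p = 5.24e-04) when the PARPi was added, with no overlap of libraries in either case.

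EIF2AK3 was the 1 member higher in both. Its level was 51, 53.3 and 46 CPM with abiraterone and olaparib and 46.7, 45.9 and 45 with enzalutamide and talazoparib. Each of these 6 libraries lay above the libraries of the matching hormonal drug alone and above those of DMSO. The rise over the hormonal drug alone was 0.33 ± 0.044 (edgeR adjusted p = 3.04e-07) and 0.31 ± 0.043 (edgeR adjusted p = 5.09e-07), and over DMSO 0.32 ± 0.044 (edgeR adjusted p = 8.70e-08) and 0.19 ± 0.043 (edgeR adjusted p = 2.82e-04). ERN1, by contrast, stayed low at 29.2, 28.7 and 28.5 and 32.8, 31.2 and 33.6 CPM, -0.75 and -0.57 against DMSO. ATF6 was at 76.3, 78.2 and 77.4 and 78.4, 79.3 and 76.7 CPM, -0.16 and -0.14 against DMSO.

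Whether the PARPi effect differed with and without the hormonal drug was tested as an interaction. For olaparib with abiraterone 2 members had a higher and 15 a lower value than the sum of the single effects, where 4.74% of all genes were higher and 8.08% lower. Without DMSO library B the 17 members past the threshold became 11. For talazoparib with enzalutamide 2 were higher and 26 lower, against 5.32% and 7.28% of all genes, and without talazoparib library C the 28 became 18. Both interactions use the DMSO libraries. HSPA5 rose with each PARPi alone and fell when it was added to a hormonal drug, and its interaction was -0.30 ± 0.036 (edgeR adjusted p = 3.10e-07) and -0.29 ± 0.036 (edgeR adjusted p = 6.77e-07). For XBP1 it was -0.023 ± 0.053 with abiraterone (edgeR adjusted p = 0.847) and -0.46 ± 0.051 with enzalutamide (edgeR adjusted p = 1.69e-07). The 2 members on the higher side were EIF2AK3 (0.27) and DNAJC10 (0.22) with abiraterone, and EIF2AK3 (0.31) and CREB3L4 (0.18) with enzalutamide. The CREB3L4 call was lost in 4 fits that left out 1 library, with 0.14 without DMSO library C, 0.18 and 0.16 without enzalutamide library A or C and 0.19 without enzalutamide and talazoparib library B. Of the disulfide genes 4 of 8 were lower with abiraterone and 7 of 8 with enzalutamide, led in each by -0.25 for ERO1A with abiraterone and -0.57 for ERO1B with enzalutamide.

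**Figure D3:**
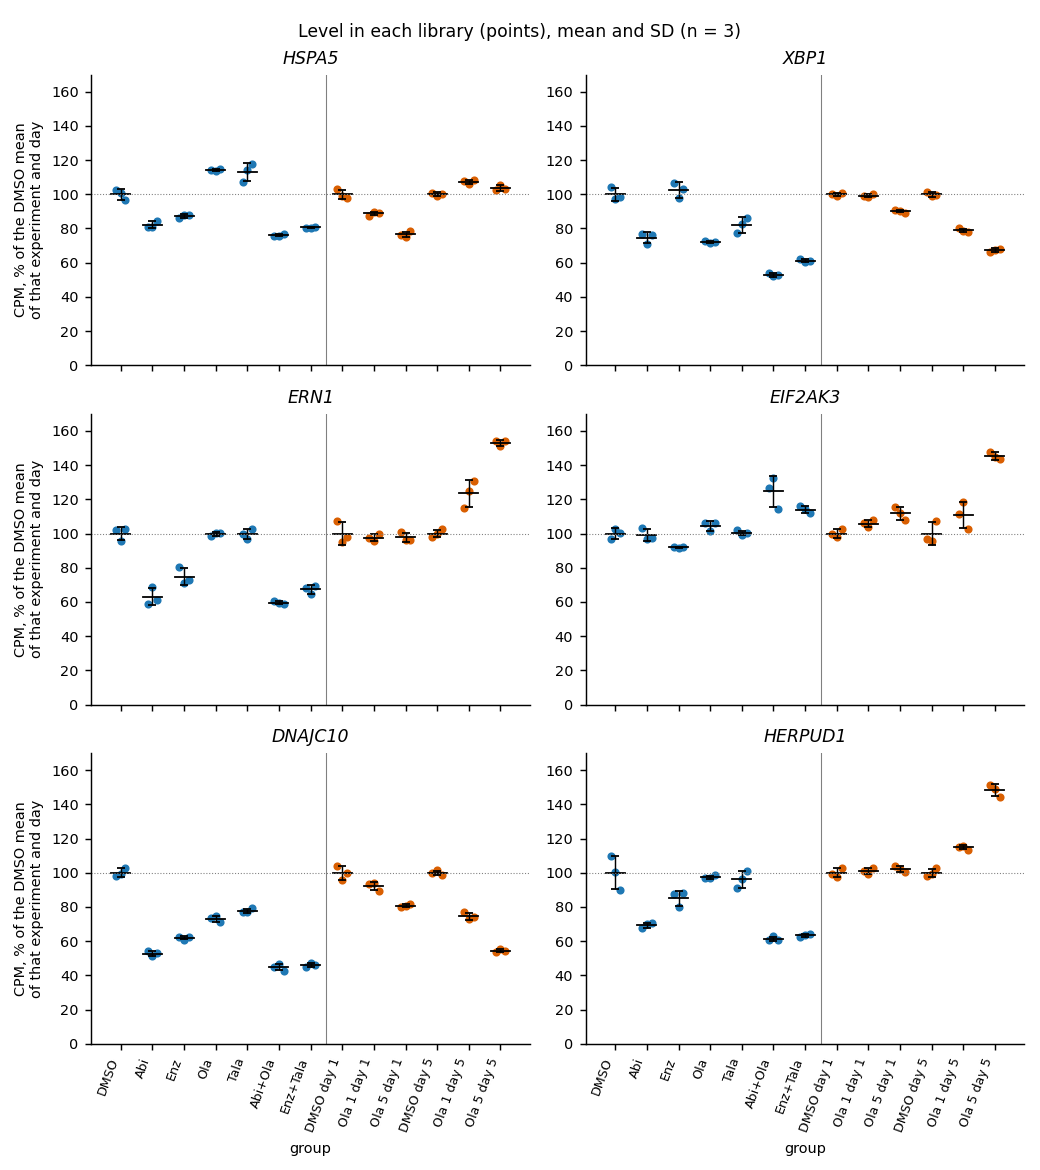
Level of 6 members in each library (points), as % of the DMSO mean of the same experiment and day (y axis, from 0), with the group mean and SD (n = 3), for the 7 panel groups (blue) and the 6 time course groups (orange). EIF2AK3 is above 100% in both combinations where the other 5 are below it, and ERN1, EIF2AK3 and HERPUD1 are highest with olaparib at 5 µM on day 5.

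At day 1 of the time course, olaparib lowered most members at 5 µM. With 1 µM 23 members fell and 1 rose, where 9.52% of all genes fell and 6.30% rose, with a members' median of -0.069. This count of 24 became 14 without DMSO day 1 library 1. With 5 µM 35 fell and 5 rose, against 23.4% and 21.6% of all genes, with a median of -0.15. All 11 chaperones, 8 of 8 translocation genes, 7 of 8 disulfide genes and 3 of 3 COPII genes fell with 5 µM, but only 3 of 10 degradation genes.

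SEC24D fell most at day 1, from 68.7, 65.1 and 67.3 CPM with DMSO to 46.4, 49.5 and 49.8 with 5 µM, a change of -0.46 ± 0.034 (edgeR adjusted p = 4.56e-14). SPCS3 went from 175, 161 and 165 to 123, 128 and 131 CPM, a change of -0.39 ± 0.030 (edgeR adjusted p = 1.32e-13). HSPA5 was at 931, 895 and 883 CPM with DMSO, 790.4, 809 and 806 with 1 µM and 685, 679.8 and 708 with 5 µM. The 3 groups did not overlap and followed the dose, with changes of -0.17 ± 0.018 (edgeR adjusted p = 8.94e-09) and -0.39 ± 0.018 (edgeR adjusted p = 1.96e-19). The 5 risers with 5 µM were DERL3, ERO1B, EIF2AK3, EDEM2 and EDEM3. DERL3 went from 6.76, 6.86 and 7.33 to 8.94, 9.17 and 10.1 CPM, a change of 0.43 ± 0.084 (edgeR adjusted p = 5.27e-05), and ERO1B from 4.92, 4.98 and 5.09 to 7.19, 6.23 and 5.96 CPM, a change of 0.37 ± 0.10 (edgeR adjusted p = 0.00173). Neither pair of groups overlapped. EIF2AK3 went from 36.4, 35.7 and 37.4 to 42.1, 41 and 39.3 CPM, a change of 0.16 ± 0.043 (edgeR adjusted p = 0.00245). The other 2 sensors did not pass at 5 µM, with ERN1 at -0.030 ± 0.043 and ATF6 at 0.031 ± 0.030, and XBP1 fell, at -0.15 ± 0.024 (edgeR adjusted p = 2.66e-06).

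At day 5 more members fell than rose. With 1 µM 13 rose and 25 fell, where 23.4% of all genes rose and 22.9% fell, and the median was -0.052. With 5 µM 13 rose and 27 fell, against 34.4% and 33.9% of all genes, with a median of -0.18. The share of members that rose lay above that of all genes with 1 µM and under it with 5 µM. The luminal marker sum was 2763 to 2796 CPM with DMSO on day 5. It was 3065 to 3090 CPM with 1 µM and 3581 to 3660 with 5 µM. KLK3, its largest part, averaged 1245 CPM with DMSO and 1879 with 5 µM, but not every gene of the list rose. The basal sum was 0.271 to 0.515 CPM with DMSO, 1.15 to 1.34 with 1 µM and 1.32 to 1.94 with 5 µM. In the same order, the endothelial sum was 10.4 to 10.6, 9.21 to 9.97 and 7.68 to 8.96 CPM. The fibroblast sum was 11.7 to 12.5, 13.6 to 14.1 and 12.97 to 13.6 CPM, and the blood sums overlapped. The part of these sums was not tested. The comparisons of both doses use the same DMSO libraries. The members' share of all counts was 1.28 ± 0.0032% with DMSO, 1.23 ± 0.00095% with 1 µM and 1.12 ± 0.0078% with 5 µM, and on day 1 1.19 ± 0.0076%, 1.15 ± 0.0068% and 1.08 ± 0.0048%.

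ERN1 rose most with 5 µM. It was at 42.4, 43.3 and 44.4 CPM with DMSO, 49.9, 54.3 and 56.7 with 1 µM and 66.7, 65.5 and 66.8 with 5 µM. The groups were separate and ordered by dose, with changes of 0.31 ± 0.039 (edgeR adjusted p = 5.01e-08) and 0.61 ± 0.039 (edgeR adjusted p = 3.46e-16). DNAJB9 was at 19.5, 20.4 and 20.4 CPM with DMSO, 26.5, 25.9 and 22.8 with 1 µM and 28.3, 31.5 and 30.2 with 5 µM, a change of 0.58 ± 0.058 with 5 µM (edgeR adjusted p = 5.81e-10). HERPUD1 was at 59.6, 60.5 and 62.3 CPM with DMSO, 69.9, 70.5 and 69.1 with 1 µM and 91.9, 90.7 and 87.7 with 5 µM, a change of 0.57 ± 0.029 with 5 µM (edgeR adjusted p = 1.45e-19). EIF2AK3 was at 34.6, 34.1 and 38.3 CPM with DMSO, 39.7, 42.2 and 36.7 with 1 µM and 52.7, 51.6 and 51.3 with 5 µM, a change of 0.54 ± 0.042 with 5 µM (edgeR adjusted p = 2.04e-13). In these 3 genes all 5 µM libraries lay above all others of day 5. The degradation genes SYVN1, SEL1L and EDEM3 rose with 5 µM, by 0.31, 0.17 and 0.31. ATF6 was at 78, 78.2 and 78.3 CPM with DMSO and 77.4, 78.6 and 75.8 with 5 µM, a change of -0.017 ± 0.030 (edgeR adjusted p = 0.621).

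The falls at day 5 were led by DNAJC10, ERO1B and SEC24D. DNAJC10 was at 248, 252 and 246 CPM with DMSO, 191, 181 and 184 with 1 µM and 134, 137 and 135 with 5 µM, with changes of -0.42 ± 0.026 (edgeR adjusted p = 5.30e-16) and -0.88 ± 0.027 (edgeR adjusted p = 2.71e-26). ERO1B was at 6.17, 6.80 and 7.0 CPM with DMSO and 3.81, 3.14 and 4.05 with 5 µM, a change of -0.86 ± 0.10 (edgeR adjusted p = 1.67e-09). SEC24D was at 78, 80.2 and 78.9 CPM with DMSO and 46.2, 48.8 and 49 with 5 µM, a change of -0.72 ± 0.034 (edgeR adjusted p = 1.26e-20). XBP1 was at 146, 142 and 144 CPM with DMSO, 115, 113 and 112 with 1 µM and 95.2, 97.2 and 98.3 with 5 µM, with changes of -0.34 ± 0.024 (edgeR adjusted p = 1.52e-14) and -0.57 ± 0.025 (edgeR adjusted p = 1.02e-21). In all 4 genes the treated libraries lay under those of DMSO. None of the translocation genes rose and 7 of 8 fell with each dose, from -0.59 for SPCS3 to -0.21 for SEC61G with 5 µM among those that fell, and the channel core SEC61A1 changed by -0.035 ± 0.018 with 5 µM (edgeR adjusted p = 0.0923).

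Between the doses at day 5, 10 members were higher with 5 µM than with 1 µM and 25 lower, where 26.6% of all genes were higher and 27.0% lower. Scaled by total counts the split was 6 higher and 32 lower, where 21% of all genes were higher and 33.2% lower under that scaling. The step from 1 to 5 µM was 0.31 ± 0.038 for ERN1, 0.39 ± 0.042 for EIF2AK3 and 0.37 ± 0.029 for HERPUD1 on the higher side (edgeR adjusted p = 1.03e-13 for HERPUD1). On the lower side it was -0.53 ± 0.093 for DERL3, -0.51 ± 0.10 for ERO1B and -0.45 ± 0.027 for DNAJC10 (edgeR adjusted p = 6.42e-17 for DNAJC10).

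The vehicle itself changed with time in culture. From day 1 to day 5 with DMSO 27 members rose and 3 fell, where 11.1% of all genes rose and 13.4% fell, and the median was 0.090. The 3 that fell were HERPUD1, DNAJB9 and XBP1, with changes of -0.43 ± 0.029 (edgeR adjusted p = 5.41e-14), -0.31 ± 0.059 (edgeR adjusted p = 2.56e-04) and -0.11 ± 0.024 (edgeR adjusted p = 5.28e-04). HERPUD1 was at 81.2, 80.1 and 84.4 CPM on day 1 and DNAJB9 at 24.9, 23 and 26.7 CPM. The 2 genes that fell most in the vehicle over these days are thus among the 3 that rose most with 5 µM on day 5, and the same DMSO day 5 libraries enter both comparisons. The largest rises in the vehicle were 0.41 for ERO1B, 0.32 for ERN1 and 0.29 for DNAJC10.

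Whether the olaparib effect differed between the days was tested as an interaction. For 1 µM 13 members had a higher effect at day 5 and 9 a lower one, where 15.6% of all genes were higher and 14.2% lower. For 5 µM 19 were higher and 17 lower, against 27.2% and 27.7% of all genes. Total count scaling moved the median interaction of all genes at 5 µM to -0.15, and the splits of the members to 9 higher and 16 lower for 1 µM and 12 higher and 27 lower for 5 µM. Under that scaling 11.6% of all genes were higher and 19.4% lower for 1 µM, and 18.6% higher and 37.4% lower for 5 µM. The day 1 and day 5 effects share no library. At 5 µM 7 members fell at day 1 and rose at day 5, 2 rose at day 1 and fell at day 5, 24 fell at both and 2, EDEM3 and EIF2AK3, rose at both. Of all genes, 4.12% fell and then rose, 3.41% rose and then fell, 15.7% fell at both and 13.6% rose at both.

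The 7 members that turned upward were HSPA5, CALR, DNAJB9 and DNAJC3 of the chaperones, P4HB and PDIA5 of the disulfide genes and SEC31A of the COPII coat. HSPA5 was at 974, 954 and 966 CPM with DMSO on day 5, 1039, 1022 and 1043 with 1 µM and 989, 1017 and 993 with 5 µM, with changes of 0.10 ± 0.018 (edgeR adjusted p = 1.62e-05) and 0.052 ± 0.018 (edgeR adjusted p = 0.0127), the second of which was -0.031 under total count scaling and lost its call without DMSO day 5 library 2 (0.043). The interaction at 5 µM was 0.44 ± 0.026 (edgeR adjusted p = 5.19e-17). For DNAJB9 it was 0.77 ± 0.083 (edgeR adjusted p = 4.21e-09). PDIA5 was at 102, 106 and 102 CPM with DMSO and 86.2, 88.5 and 87.4 with 5 µM on day 1, and at 114, 113 and 113 and 141, 136 and 139 on day 5, an interaction of 0.53 ± 0.038 (edgeR adjusted p = 1.27e-14). DNAJC3 was at 124, 116 and 123 and 108, 114 and 109.7 CPM on day 1 and 135, 133 and 132 and 154, 158 and 154 on day 5, an interaction of 0.35 ± 0.040. SEC31A was at 147, 146 and 147 and 142, 136 and 135 CPM on day 1 and 154, 147 and 150.4 and 178, 185 and 180.2 on day 5, an interaction of 0.36 ± 0.036. In each of these 3 genes the treated libraries lay under the vehicle on day 1 and above it on day 5. At 1 µM 3 members, HSPA5, DNAJC3 and SEC31A, fell at day 1 and rose at day 5, as did 0.870% of all genes. With 5 µM the day 1 fall lost its call for P4HB (-0.053) without olaparib library 2 (-0.048) or 3 (-0.046) and for DNAJB9 (-0.19) without DMSO library 3 (-0.14), and the day 1 rise of EDEM3 (0.11) without DMSO library 2 (0.054) or olaparib library 3 (0.081). Under total count scaling the day 1 falls of P4HB (-0.0046) and SEC31A (-0.043) and the day 5 rise of CALR (0.00084) did not pass.

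The 2 members that turned downward were DERL3 and ERO1B, both of few counts. DERL3 was at 6.26, 6.66 and 6.07 CPM with DMSO on day 5 and 4.42, 3.90 and 5.32 with 5 µM, a change of -0.48 ± 0.093 (edgeR adjusted p = 2.34e-05) after its rise at day 1. The interaction was -0.91 ± 0.12 for DERL3 (edgeR adjusted p = 9.53e-08) and -1.23 ± 0.14 for ERO1B (edgeR adjusted p = 1.60e-09), the latter the largest of any member in either direction. XBP1, whose product acts on many of these genes, had an interaction of -0.42 ± 0.034 (edgeR adjusted p = 3.55e-13), DNAJC10 of -0.57 ± 0.038 (edgeR adjusted p = 1.44e-15), ERN1 of 0.64 ± 0.058 (edgeR adjusted p = 1.12e-11) and HERPUD1 of 0.54 ± 0.040 (edgeR adjusted p = 3.85e-14).

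**Figure D4:**
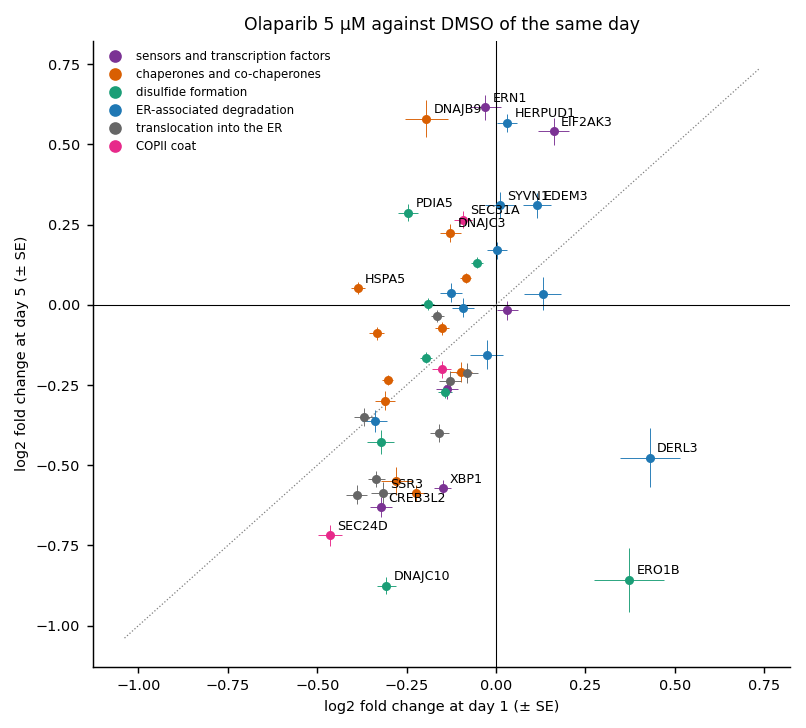
Log2 fold change of each of the 46 tested members with olaparib at 5 µM against DMSO of the same day, at day 1 (x axis) and day 5 (y axis), ± SE, coloured by role, with the dotted line marking equal effects. ERN1, DNAJB9, HERPUD1 and EIF2AK3 stand at 0.54 to 0.61 on the day 5 axis, ERO1B and DERL3 lie at the lower right, and most translocation genes lie at the lower left.

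Olaparib at 1 µM for 5 days was measured in both experiments, with no library in common. Of 46 members, 35 had the same sign in both, against 78.2% of all genes tested in both. 8 rose in both (CALR, DNAJC3, EDEM3, HSPA5, P4HB, PDIA5, SEC31A and SYVN1), 12 fell in both and 0 passed in opposite directions, where 16.1% of all genes rose in both, 14.0% fell in both and 0.100% passed in opposite directions. Those that fell in both were XBP1, CREB3L2, DNAJB11, DNAJC10, ERO1B, the translocation genes SEC61B, SPCS2, SRP19, SSR1 and SSR3, and the COPII genes SEC23B and SEC24D. These are 8 of the 9 risers and 12 of the 13 fallers in the panel, and 8 of the 13 risers and 12 of the 25 fallers in the time course. The shares of members with the same sign and of risers in both lay near those of all genes. Across the 46 members the log2 fold changes had a Pearson r of 0.77 and a Spearman rho of 0.77, as a description over genes that share libraries and are not independent replicates. The same correlation was not computed over all genes. DNAJC10 changed by -0.45 ± 0.030 and -0.42 ± 0.026, XBP1 by -0.47 ± 0.037 and -0.34 ± 0.024, and HSPA5 by 0.19 ± 0.026 and 0.10 ± 0.018, in the panel and the time course. The members farthest apart were DNAJB9 at -0.094 ± 0.061 and 0.32 ± 0.059, ERN1 at -0.0062 ± 0.048 and 0.31 ± 0.039 and HERPUD1 at -0.034 ± 0.050 and 0.20 ± 0.029, which passed in the time course and not in the panel, a difference that was not tested.

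**Figure D5:**
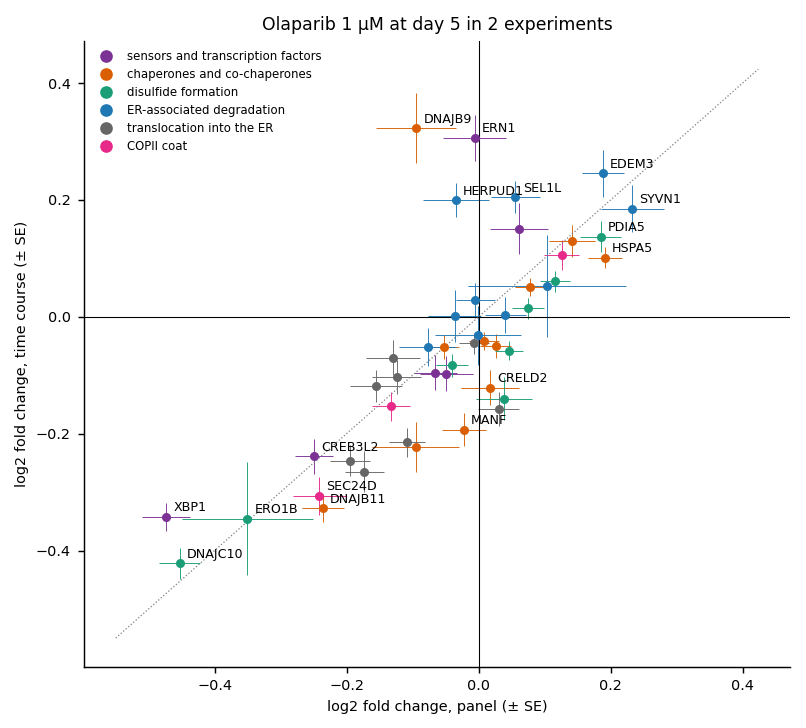
Log2 fold change with olaparib at 1 µM for 5 days against DMSO in the panel (x axis) and in the time course (y axis), ± SE, for the 46 tested members, with the dotted line marking equal effects. Of the members, 35 lie in the quadrants of equal sign, and DNAJB9 and ERN1 lie highest at the left of centre.

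Other genes of the pathway, listed by function, were counted in the same fits. The shares of all genes against which these counts stand are 25.8% higher and 27.1% lower with abiraterone, and 27.0% higher and 26.3% lower with enzalutamide. With abiraterone, 2 rose and 27 fell of 31 tested (median -0.33) in the list of further coat and cargo genes, 1 rose and 12 fell of 16 tested (median -0.28) in the list of N-glycosylation genes, and 5 rose and 17 fell of 25 tested (median -0.30) in the list of further folding factors. For further translocation genes, 3 rose and 13 fell of 17 tested (median -0.26), and for further degradation genes, 2 rose and 12 fell of 23 tested (median -0.14). Large falls among these were -1.33 for DNAJC1, -0.89 for PRDX4, -0.73 for TRAM1, -0.67 for LMAN1 and -0.59 for STT3A: an HSPA5 partner, a peroxiredoxin of the ER, a translocation factor, a cargo receptor and the catalytic subunit of the glycan transferase. With enzalutamide the same lists gave the following. For coats and cargo, 2 rose and 27 fell of 31 tested (median -0.33). For N-glycosylation, 2 rose and 10 fell of 16 tested (median -0.18). For folding, 5 rose and 16 fell of 25 tested (median -0.29). For translocation, 4 rose and 13 fell of 17 tested (median -0.20). For degradation, 4 rose and 13 fell of 23 tested (median -0.14). The degradation factor ERLIN2 was among the risers, at 0.52 ± 0.028 with enzalutamide (edgeR adjusted p = 1.24e-17).

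The PERK branch and ATF4 target list was counted in the same way. With abiraterone 0 rose and 9 fell of 12 tested (median -0.54), with enzalutamide 3 rose and 4 fell of 12 tested (median -0.029), with olaparib 1 rose and 7 fell of 12 tested (median -0.51) and with talazoparib 1 rose and 9 fell of 12 tested (median -0.44). Of all genes, 19.6% rose and 16.0% fell with olaparib, and 18.4% rose and 15.4% fell with talazoparib. Enzalutamide against abiraterone gave 10 of 12 higher and 0 lower, with a median of 0.56, where 9.78% of all genes were higher and 10.1% lower. The asparagine synthetase gene ASNS and CHAC1, which degrades glutathione, changed by -1.23 ± 0.063 (edgeR adjusted p = 2.32e-10) and -1.70 ± 0.12 (edgeR adjusted p = 2.46e-13) with olaparib, and the pseudokinase gene TRIB3 by -1.08 ± 0.058 (edgeR adjusted p = 5.63e-16) with abiraterone. EIF2AK3 itself, which encodes the kinase upstream of ATF4, showed the values given above. Chaperones of the cytosol and mitochondria gave 4 rose and 12 fell of 21 tested (median -0.15) with abiraterone and 1 rose and 15 fell of 21 tested (median -0.23) with enzalutamide, and with olaparib at 5 µM on day 1 0 rose and 21 fell of 21 tested (median -0.27), where 21.6% of all genes rose and 23.4% fell. In the list of further stress transducers, 2 rose and 4 fell of 9 tested (median -0.0092) with abiraterone and 4 rose and 0 fell of 9 tested (median 0.071) with olaparib. The 2 risers of 9 with abiraterone are near the share of all genes given above.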

How the data were processed

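RNA was measured in 39 libraries of C4-2B cells, 21 in the panel and 18 in the time course. Per the labels, stranded poly(A) libraries were made. The authors trimmed reads with Trim Galore, aligned them with STAR to GRCh38 and quantified them with Salmon. They deposited 1 table of estimated counts per gene, held as whole numbers, for 63187 gene IDs, of which 62666 were paired here with a symbol from GENCODE release 44, an earlier release than the authors' annotation. All of its per-sample columns were mapped to a sample by the library name in its description.

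The panel and the time course were fitted separately in edgeR 4.0.16 (R 4.3.3) with filterByExpr by group, TMM scaling, glmQLFit with robust estimation and glmQLFTest. P-values were adjusted by Benjamini-Hochberg over the 18625 and 18502 genes tested, with a threshold of 0.05, in 21 comparisons. The same code was tested on simulated data. Library depth was 26932205 to 49833473 counts. Levels per kb use the union of exons. Counts assigned to pseudogene copies of members came to at most 0.424% of the member's own counts. Coordinates are GRCh38. Replicates of 1 group differed by more than sampling noise, with chi-square per degree of freedom between 2.18 and 6.03.

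The members and all gene lists were chosen with earlier results of these data known. Members given with every library are HSPA5, XBP1, ATF6, ERN1 and EIF2AK3 and, in 7 comparisons, the 3 members that rose most and the 3 that fell most among those past the threshold, if the higher group averaged 100 counts or more. Alternatives were RLE and total count scaling, other filters on low counts (none, or a CPM of at least 1 in 3 libraries), a fit of only the groups compared, DESeq2 1.42.0, a replicate block and leaving out each library in turn. 2 genes of the luminal marker list are not reported here.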

Additional observations from a re-analysis of the deposited data

Results flagged for a closer look

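The effect of olaparib on 22 members at 1 µM and on 36 members at 5 µM differed between day 1 and day 5 by the interaction test (edgeR's quasi-likelihood test, adjusted p under 0.05). Of all genes, 15.6% were higher and 14.2% lower in that test at 1 µM, and 27.2% higher and 27.7% lower at 5 µM. The effect of olaparib differed with and without abiraterone for 17 members, and that of talazoparib with and without enzalutamide for 28. Of all genes, 4.74% were higher and 8.08% lower in the first of these tests, and 5.32% higher and 7.28% lower in the second. At 5 µM, 9 members passed in opposite directions on the 2 days and in the interaction, as did 7.52% of all genes tested. The effect at day 5 minus that at day 1, on the log2 scale, was 0.17 for CALR, 0.77 for DNAJB9, 0.35 for DNAJC3, 0.44 for HSPA5, 0.18 for P4HB, 0.53 for PDIA5 and 0.36 for SEC31A. It was -0.91 for DERL3 and -1.23 for ERO1B. No group had the 4 libraries that a search for single outlying values needs.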

How the results depend on the processing

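The count of members past the threshold stayed within 1.5 times its value in all 21 comparisons under RLE scaling, total count scaling, both filters on low counts, the fit of only the groups compared and the replicate block. With DESeq2 the count for talazoparib against olaparib moved from 9 to 14. Leaving out 1 library gave 3 to 14 for that comparison, 11 to 19 for the abiraterone by olaparib interaction (17 with all libraries), 18 to 28 for the enzalutamide by talazoparib interaction (28) and 14 to 21 for olaparib at 1 µM on day 1 (24). Among member values past the threshold as reported or under an alternative, 9 changed sign, all under total count scaling. Other changes of sign were in values past it in neither case. The 9 were -0.031 for HSPA5 and -0.081 for PDIA3 with olaparib at 5 µM on day 5, -0.049 for SEC61A1 between the doses on day 5, and, in the interaction of 5 µM with day, -0.062 for HSP90B1, -0.053 for CANX, -0.12 for MANF, -0.099 for PDIA4, -0.0014 for SEC61A1 and -0.11 for SRP19. Libraries with the same replicate label did not deviate together (mean correlation -0.0063 in the panel and -0.0060 in the time course), and with the replicate block 22 members in place of 24 passed with olaparib at 1 µM on day 1 and 15 in place of 17 in the abiraterone by olaparib interaction. Of 966 member values, 8 changed their call under the block. Fits that left out 1 library took the call from a member value 351 times and gave a new one 57 times. Depth limits DERL3 and ERO1B, the lowest tested members, and CREB3L1 was below what these libraries can test.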
